A study of Homo sapiens with 9 samples.

Results

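The genes of the WNT pathway were followed in TC-71, a cell line from Ewing sarcoma, and in 3 lines derived from it that had become resistant to drugs that target the IGF-1 receptor. The members were the genes with a WNT, FZD, DKK or SFRP number as their only symbol, together with FRZB, WIF1, LRP5, LRP6, AXIN1, AXIN2, CTNNB1, APC, LEF1, TCF7L1, TCF7L2, DACT1 and DACT3. They came to 47 of the 19775 genes that were alone on at least 1 probe set, and each was read by the brightest of its probe sets, judged by the mean of all 9 arrays. The rule for membership uses gene names and no measured value, but it was set with earlier results of these data known. DACT2 is no member and is described with the other genes of the pathway.

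TC/AEW was selected with the kinase inhibitor NVP-AEW541 at up to 5 µM, TC/AVE with AVE1642, an antibody, at up to 10 µg/ml. TC/CP was selected with figitumumab, also an antibody, and the sources used here do not give its highest concentration. The selection ran for 6 months, and the labels name no TC-71 culture carried alongside it, so resistance and time in culture cannot be told apart. Each resistant line was measured on 2 technical replicate arrays, which were averaged to 1 sample, and TC-71 on 1 array for each of 3 biological replicates. All groups descend from 1 line and were grown in the same medium with 10% serum. With 1 sample per line, the only spread measured for a gene in each single-line test was that of the 3 TC-71 samples, which each single sample was taken to share. The test draws it toward a spread pooled over all genes tested, with 2 residual and 3.014 prior degrees of freedom. A p-value here speaks only for that spread, or in the lines in common for the spread within the 2 groups, and either may be technical. Levels are log2 values, and a level under 5 is taken here as near background. The blood marker HBB read 5.95, 5.96 and 5.85 in TC/AEW, in TC/AVE and in TC/CP against 5.74 to 6.02 in TC-71, so background may reach higher than that. Brightness differs between probe sets, so levels of different genes are not ranked against each other. In a bulk culture, fewer cells that express a gene cannot be told apart from less RNA per cell.

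The array medians lay between 5.39 and 5.45. Of 10 markers fixed for Ewing sarcoma cells, 9 had a probe set and 8 of these stood at 6 or above on every array, CD99 among them at 12.95, 13.00 and 12.93 in TC/AEW, in TC/AVE and in TC/CP against 12.82 to 12.83 in TC-71. LIPI, the ninth, was below every TC-71 sample in all lines, at 5.82, 5.23 and 5.33 against 6.48 to 7.45. Among markers of other cells, 1 of 5 for blood and immune cells passed the level filter (HBB), 3 of 6 for epithelial cells, 2 of 4 for endothelial cells and 7 of 8 for fibroblasts. The defining markers PTPRC, EPCAM and CDH5 did not pass it. The keratin gene KRT18 stood at 5.88, 5.79 and 5.65 against 6.69 to 7.02 in TC-71. KRT8 went the other way in TC/AEW and TC/AVE, at 6.12, 6.11 and 5.89 against 5.31 to 5.97. KRT5 lay within its TC-71 range, at 5.35, 5.28 and 5.32 against 5.23 to 5.46. PECAM1 stood at 6.32, 6.27 and 6.24 against 6.06 to 6.26. The names of the array files in the labels place TC-71 sample 2 in the same year as TC/AEW and TC/AVE, and TC-71 sample 3 in the same year as TC/CP. These year groups are called array sets below, and differences within a set are given beside the main ones. TC-71 sample 1 lies in neither of these sets, so each TC-71 sample belongs to a different set. The spread of the TC-71 samples therefore cannot be told apart from a spread between array sets.

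WNT proteins are secreted lipid-modified ligands. In the canonical branch they bring together a Frizzled receptor and the co-receptor LRP5 or LRP6, which stops the complex of APC, AXIN and kinases from marking beta-catenin for breakdown, and beta-catenin then acts in the nucleus with TCF/LEF factors. In other branches, of which WNT5A is the best known ligand, Frizzled receptors act on cell shape, polarity and calcium without beta-catenin. Several secreted DKK proteins, DKK2 among them, bind LRP5 and LRP6, while SFRP proteins, FRZB and WIF1 bind the ligands themselves.

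Of the 47 members, 32 passed the filter of at least 2 arrays at 5 or above and entered the tests, and 15 did not. Among the 32, all but DACT1 stood at 5 or above on every array, DACT1 having reached it on 7 of 9, and 21 stood at 6 or above on every array. The 15 that did not pass were WNT1, WNT2, WNT2B, WNT8A, WNT9A, WNT9B, FZD10, DKK1, DKK3, DKK4, SFRP1, SFRP2, SFRP4, FRZB and WIF1. Their highest single reading was 5.13, for SFRP1 in TC-71 sample 3, and none of them ranged over more than 0.85 between samples. Thus 8 of the 10 secreted antagonists gave no signal clearly above background in any line, as did 6 of the 17 ligands and 1 of the 9 Frizzled receptors.

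Over the 32 members tested, limma called none at an adjusted p under 0.05 in any of the 6 comparisons. Over all 14172 genes tested, the shares called at that threshold were 0.0212% in the lines in common and 0% against TC-71 in each line taken singly, between TC/AEW and the antibody-selected lines and in TC/AVE against TC/CP. An unadjusted p under 0.05 was reached by 2 members in the lines in common, against 8.39% of all genes. It was reached by 1 member in TC/AEW (3.52% of all genes), 2 in TC/AVE (7.23%) and 3 in TC/CP (4.93%). Between lines it was reached by 0 members between TC/AEW and the antibody-selected lines (1.81%) and 4 in TC/AVE against TC/CP (5.78%). The values below are therefore descriptions of single lines with the spread of TC-71 beside them.

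Counted by size, no member was at least 2-fold apart in the lines in common (1.58% of all genes) or in TC/AEW (2.22%). At least 2-fold, 1 member was lower in TC/AVE (3.68% of all genes) and 2 were higher in TC/CP (3.19%). Between the lines, 2 members were at least 2-fold lower in TC/AVE than in TC/CP (4.72% of all genes) and none differed so far between TC/AEW and the antibody-selected lines (1.28%). The median log2 difference of the 32 members was 0.022 in the lines in common (17 higher, 15 lower), against -0.0060 over all genes. In the single lines the members' medians were -0.0033 in TC/AEW, -0.014 in TC/AVE and 0.052 in TC/CP. The medians over all genes were 0.0012, -0.018 and -0.0024 in the same lines.

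**Figure D1:**
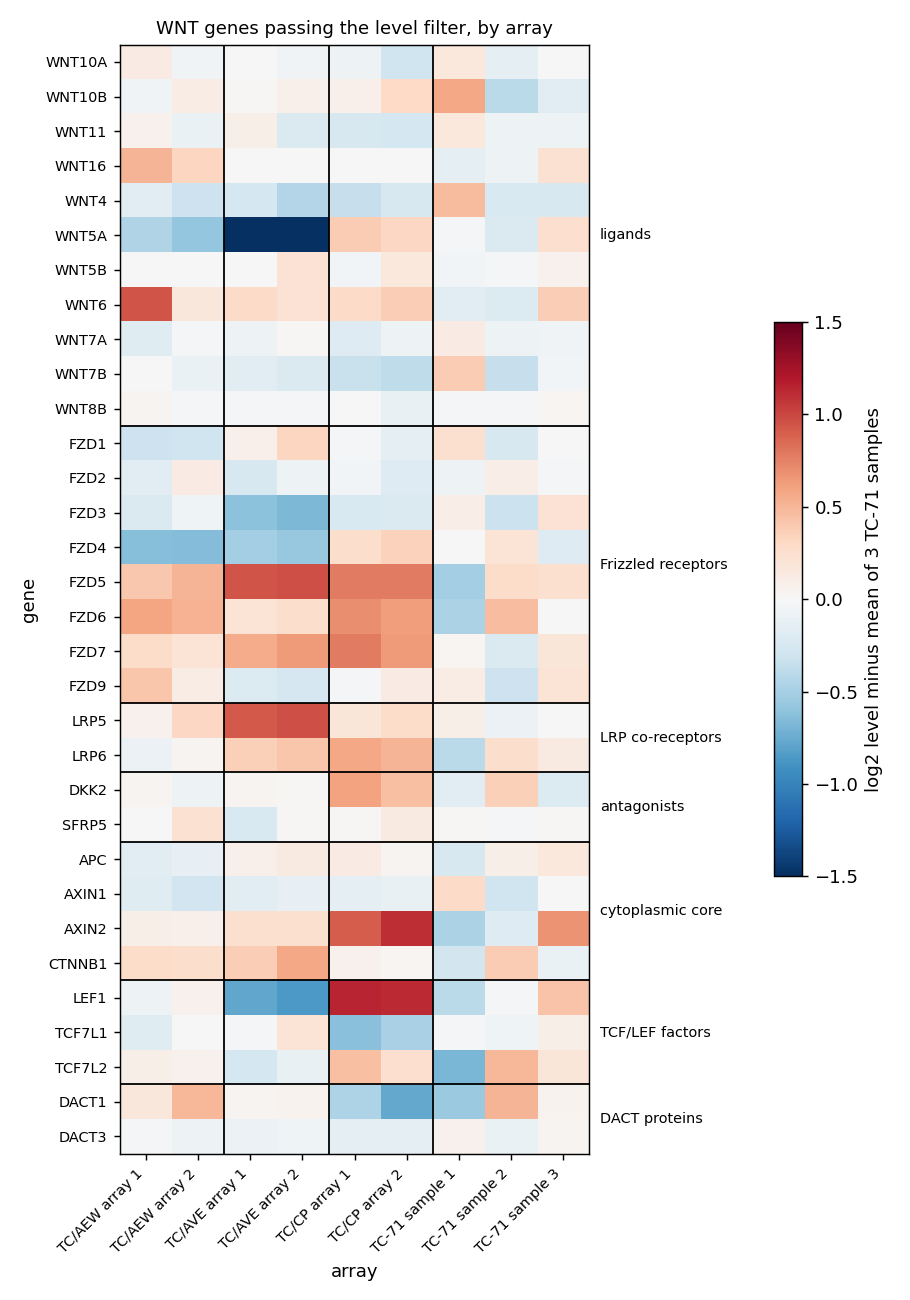
Difference of each array from the mean of the 3 TC-71 samples on the log2 scale, for the 32 members that passed the filter, with genes in rows grouped by role and arrays in columns, the resistant lines left of TC-71. The colours stop at 1.5 in either direction. WNT5A in TC/AVE is the darkest low pair of cells, and LEF1 in TC/CP is the darkest high pair. FZD5 and LRP5 in TC/AVE are about as dark as AXIN2 in TC/CP.

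WNT5A, the ligand best known for signalling without beta-catenin, was the member with the largest difference from TC-71. It read 8.28 and 8.14 on the TC/AEW arrays, 6.94 and 7.09 on the TC/AVE arrays and 9.11 and 9.03 on the TC/CP arrays, against 8.70, 8.50 and 8.97 in TC-71 samples 1, 2 and 3. The TC/AEW and TC/AVE arrays lay below all TC-71 samples and the TC/CP arrays above all of them, the last by a small margin over TC-71 sample 3. In TC/AVE the level was 3.27-fold below TC-71, a log2 difference of -1.71 ± 0.27 (SE, adjusted p = 0.291 by limma). The difference was -0.51 ± 0.27 in TC/AEW (adjusted p = 1.00) and 0.35 ± 0.27 in TC/CP (adjusted p = 0.999). Between the antibody-selected lines, TC/AVE stood 4.16-fold below TC/CP, at -2.06 ± 0.32 (adjusted p = 0.431 by limma). TC/AVE and TC/CP lie in different array sets, so line and set cannot be told apart in this direct difference. Over the alternatives it lay between -2.17 and -1.59.

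Both probe sets of WNT5A gave similar differences. The second read 6.23 in TC/AVE against 7.94 ± 0.26 in TC-71 (SD, n = 3), again a difference of -1.71, and -0.55 and 0.48 in TC/AEW and TC/CP. Within array sets, WNT5A in TC/AVE was -1.49 from TC-71 sample 2, in TC/AEW -0.29 from the same sample, and in TC/CP 0.096 from TC-71 sample 3. Over the alternatives that kept the lines as single samples, the TC/AVE difference lay between -1.82 and -1.49. Of 8 fibroblast markers, whose mean was 6.79, 5.90 and 6.21 in TC/AEW, in TC/AVE and in TC/CP against 5.83 to 6.28 in the TC-71 samples, COL3A1 stood at 5.19 in TC/AVE, below the TC-71 range of 6.67 to 7.97. DCN at 8.55 and THY1 at 7.50 in TC/AVE stood above their TC-71 ranges of 6.91 to 8.08 and 6.43 to 7.05. The part of these genes in the WNT5A level was not tested.

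LEF1, a nuclear factor through which beta-catenin acts and itself a WNT target gene, had the same order of lines as WNT5A among the antibody-selected lines. It read 7.97 and 8.11 on the TC/AEW arrays, 7.27 and 7.18 on the TC/AVE arrays and 9.19 and 9.17 on the TC/CP arrays, against 7.64, 8.02 and 8.48 in TC-71 samples 1, 2 and 3. TC/AVE lay below every TC-71 sample, TC/CP above every one and TC/AEW among them. The log2 difference was 1.13 ± 0.36 in TC/CP (2.19-fold, adjusted p = 0.861 by limma) and -0.82 ± 0.36 in TC/AVE (adjusted p = 0.729). TC/AVE stood 3.87-fold below TC/CP, at -1.95 ± 0.45 (adjusted p = 0.529 by limma). This difference also runs across array sets, and over the alternatives it lay between -1.99 and -0.69. Within array sets the difference was -0.80 for TC/AVE and 0.71 for TC/CP. The other probe sets of LEF1 lay near background, with TC-71 means of 5.60 and 4.87, and their differences in TC/CP were -0.22 and 0.14. With the mean of the kept probe sets the TC/CP difference of LEF1 was 0.35.

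AXIN2, a scaffold of the beta-catenin destruction complex and a common readout of canonical WNT activity, stood above every TC-71 sample in TC/CP. It read 6.87 and 6.85 on the TC/AEW arrays, 7.03 on both TC/AVE arrays and 7.69 and 7.88 on the TC/CP arrays, against 6.30, 6.58 and 7.45 in TC-71 samples 1, 2 and 3. The other lines lay among the TC-71 samples. The TC/CP difference was 1.01 ± 0.48 (2.01-fold, adjusted p = 0.999 by limma), and it was 0.33 from TC-71 sample 3, the sample of the same array set. With any 1 TC-71 sample left out, the difference in TC/CP lay between 0.77 and 1.34. The other 3 probe sets of AXIN2 had differences of -0.13, -0.15 and -0.40 in TC/CP, so the reading rests on 1 of 4 probe sets, and with their mean the TC/CP difference was 0.082. TC-71 sample 3 was the highest TC-71 sample for WNT5A, LEF1 and AXIN2 alike, and the part of the array set in the TC/CP levels was not tested beyond the within-set values.

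WNT5A and LEF1 were both lowest in TC/AVE and highest in TC/CP, and the 250 bases before their starts are shown to let the promoters be read side by side. The sequences are from RefSeq (GRCh38.p14), run 5′ to 3′ on the gene's strand, and the capitals mark GGAA or its reverse complement TTCC, the core bound by ETS factors such as FLI1, which is part of the fusion oncoprotein of most Ewing sarcomas. WNT5A has starts in 2 places, at chr3:55487307-55487556 and chr3:55481399-55481648 on the minus strand, and LEF1 has 1, at chr4:108166302-108166551 on the minus strand.
WNT5A, upstream start: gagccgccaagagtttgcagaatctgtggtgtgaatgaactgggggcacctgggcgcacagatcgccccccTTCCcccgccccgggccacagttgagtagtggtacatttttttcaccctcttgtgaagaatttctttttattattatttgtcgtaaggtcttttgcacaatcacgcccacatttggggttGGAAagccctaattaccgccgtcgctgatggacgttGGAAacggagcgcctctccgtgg
WNT5A, downstream start: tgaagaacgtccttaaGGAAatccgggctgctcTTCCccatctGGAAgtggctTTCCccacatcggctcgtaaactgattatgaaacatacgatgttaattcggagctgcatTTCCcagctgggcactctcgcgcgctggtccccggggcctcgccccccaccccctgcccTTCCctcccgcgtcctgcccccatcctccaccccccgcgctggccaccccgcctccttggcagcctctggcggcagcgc
LEF1: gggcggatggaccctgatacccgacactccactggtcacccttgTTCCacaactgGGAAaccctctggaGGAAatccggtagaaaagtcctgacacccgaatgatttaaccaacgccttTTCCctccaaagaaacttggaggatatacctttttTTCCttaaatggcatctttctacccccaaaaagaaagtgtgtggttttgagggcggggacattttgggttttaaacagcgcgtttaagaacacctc

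On both strands together, GGAA was found 3 and 6 times in the WNT5A windows and 5 times in the LEF1 window, and 92.7% of all 35116 promoter windows of the same length hold it at least once, with a median of 3. The tandem repeat GGAAGGAA, found on either strand in 3.06% of all windows, was in none of the 3. The TCF/LEF core, searched on both strands as CTTTG followed by AA, TT, AT or TA, of which only 1 can start at a given base, was also in none of them, and 12% of all windows hold it. Among the promoter windows of members, 3 of 42 held it (7.14%), those of DKK1, TCF7L2 and DACT1. Only 33 members had a window, and AXIN2, FZD7, DKK2 and LRP6 were among those without one, so nothing is said of their promoters. The median share of G and C was 69.0% in the windows of members and 58.0% in all windows. The part of this base content in the shares with the core was not tested. These matches are descriptions of the letters in these windows.

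The other ligands showed small differences. The 10 besides WNT5A that passed the filter were WNT4, WNT5B, WNT6, WNT7A, WNT7B, WNT8B, WNT10A, WNT10B, WNT11 and WNT16, with no difference from TC-71 beyond 0.56 in any line. WNT10B ranged from 6.91 to 7.89 over the 9 arrays, both ends being TC-71 samples. WNT6 had that largest difference, 0.56 ± 0.31 in TC/AEW, and its 2 TC/AEW arrays read 6.73 and 5.96, the widest gap between technical replicates of any member tested. WNT16 in TC/AEW, at 5.81 against 5.40 ± 0.20 in TC-71 (SD, n = 3), was the only one of them with both arrays of a line above all TC-71 samples. It read 5.39 on every TC/AVE and TC/CP array, and its other probe set read 2.97 in TC/AEW against 3.01 in TC-71. WNT4, WNT5B, WNT7A, WNT8B, WNT10A, WNT11 and WNT16 stayed under 6 on every array, near the level of HBB, so background may weigh in them.

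Frizzled receptors are the seven-pass membrane receptors of WNT ligands, and 8 of 9 passed the filter. Among the 32 members tested, FZD7 and FZD5 were the only ones with every array of all lines beyond all TC-71 samples, both above, and such non-overlap was seen in 6.25% of those members and 9.53% of all genes (5.2% above and 4.33% below). DKK3, which was not tested, lay below TC-71 in every line, at 3.83 to 3.98 against 4.05 to 4.46, all near background. FZD7 read 9.24 and 9.17 on the TC/AEW arrays, 9.52 and 9.61 on the TC/AVE arrays and 9.74 and 9.61 on the TC/CP arrays, against 9.0, 8.75 and 9.14 in TC-71 samples 1, 2 and 3. All lines lay above TC-71, TC/AEW by the smallest margin. The difference of FZD7 in the lines in common was 0.51 ± 0.18 (1.43-fold, adjusted p = 0.498 by limma), with single values of 0.24, 0.60 and 0.71 in TC/AEW, in TC/AVE and in TC/CP. Within array sets these were 0.45, 0.81 and 0.53, and the second FZD7 probe set gave 0.15, 0.65 and 0.57. On that second probe set TC/AEW overlapped TC-71, its lower array reading 9.10 against 9.11 in TC-71 sample 1. Without TC-71 sample 2 the TC/AEW difference of FZD7 was 0.13.

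FZD5, FZD4 and LRP5 are described array by array because of their values, which were seen first. FZD5 read 7.65 and 7.75 on the TC/AEW arrays, 8.19 and 8.21 on the TC/AVE arrays and 8.02 and 8.03 on the TC/CP arrays, against 6.73, 7.52 and 7.48 in TC-71 samples 1, 2 and 3. TC-71 sample 1 stood well below the other two. In the lines in common FZD5 was 0.73 ± 0.25 above TC-71 (1.66-fold, adjusted p = 0.498 by limma), and between 0.47 (without TC-71 sample 1) and 0.87 above it when a TC-71 sample, a line or 1 array of each line was left out. The second FZD5 probe set, near background at 4.78 ± 0.12 in TC-71, was also above every TC-71 sample in each line, by 0.42, 0.15 and 0.16 on average. Within array sets the differences were 0.18, 0.68 and 0.54 in TC/AEW, in TC/AVE and in TC/CP.

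FZD4, the receptor of norrin as well as of WNT ligands, stood on opposite sides of TC-71 in different lines. It read 8.16 on both TC/AEW arrays, 8.30 and 8.24 on the TC/AVE arrays and 9.07 and 9.15 on the TC/CP arrays, against 8.79, 9.0 and 8.62 in TC-71 samples 1, 2 and 3. TC/AEW and TC/AVE lay below every TC-71 sample and TC/CP above every one. The differences were -0.64 ± 0.25, -0.54 ± 0.25 and 0.30 ± 0.25 in TC/AEW, in TC/AVE and in TC/CP (adjusted p = 1.00, 0.745 and 0.999 by limma), and within array sets -0.84, -0.74 and 0.49. The other FZD4 probe set, whose TC-71 samples had an SD of 1.00, gave 0.081, 0.20 and -0.43, and with the mean of both probe sets the TC/CP difference turned to -0.063. TC/AVE was -0.84 ± 0.30 from TC/CP (adjusted p = 0.832 by limma). This difference runs across array sets, and over the alternatives it lay between -1.23 and -0.11. FZD3 was -0.65 ± 0.29 from TC-71 in TC/AVE, and its 4 probe sets had TC/AVE differences of -0.65, -0.86, -0.38 and -0.25. FZD6 stood at 8.92, 8.60 and 9.03 in TC/AEW, in TC/AVE and in TC/CP against 8.37 ± 0.47 in TC-71, while FZD2 stayed between 7.94 and 8.30 on every array.

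**Figure D2:**
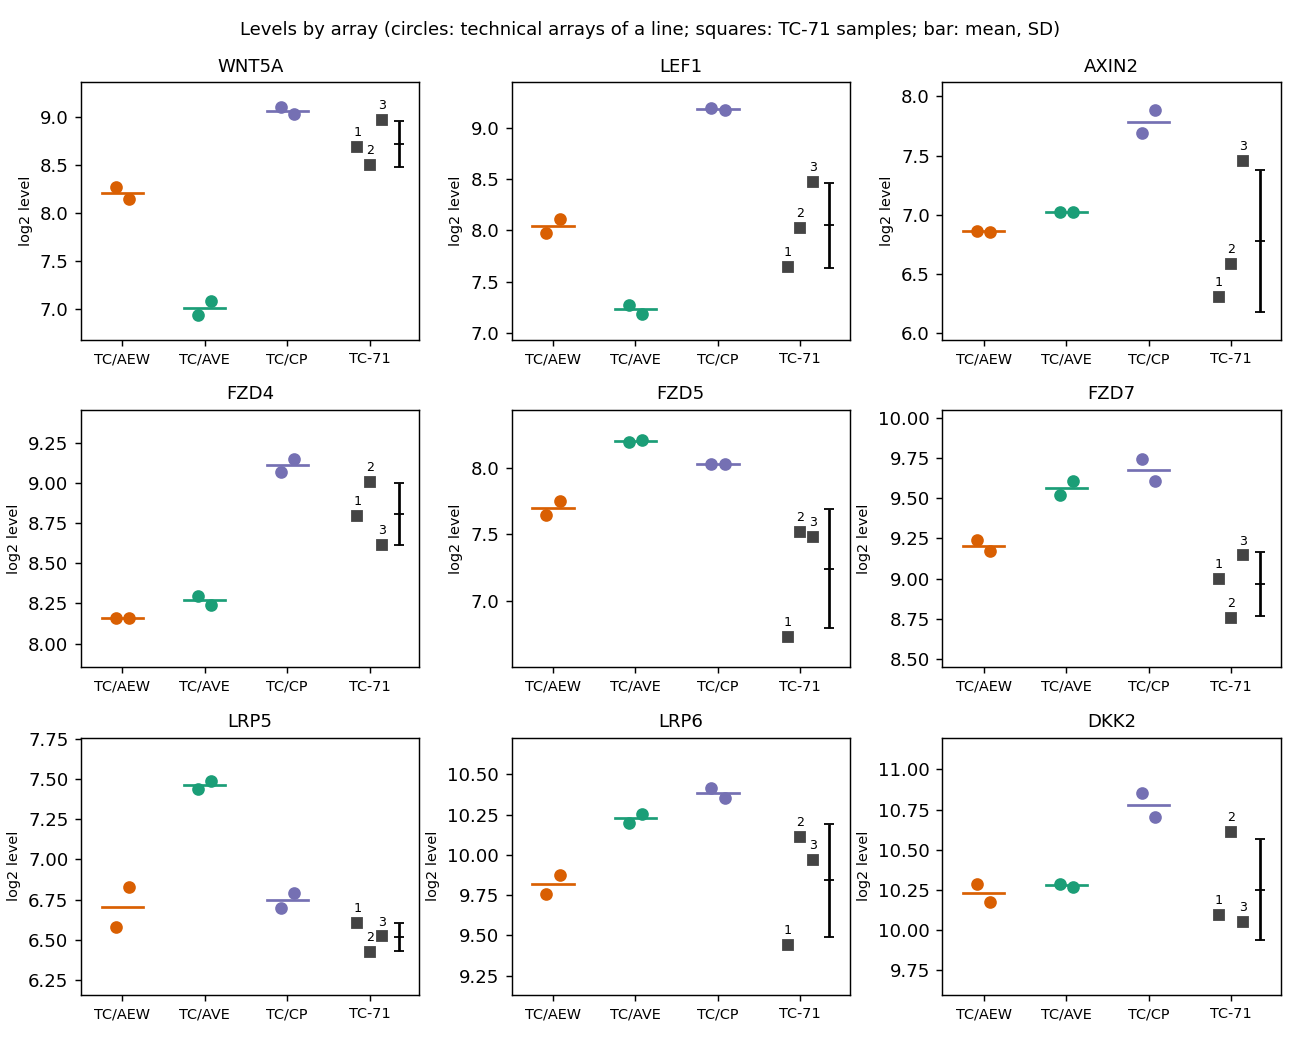
Log2 levels by array of 9 members, with the technical arrays of the resistant lines as circles with a line at their mean and the numbered TC-71 samples as squares with their mean and SD (n = 3) to the right. WNT5A and LEF1 are lowest in TC/AVE and highest in TC/CP, FZD5 and FZD7 lie above TC-71 in every line, and TC-71 sample 1 is the lowest point for FZD5 and LRP6; the vertical scales differ between panels.

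LRP5 and LRP6 are single-pass co-receptors that Frizzled receptors need for the beta-catenin branch. LRP5 read 6.58 and 6.83 on the TC/AEW arrays, 7.44 and 7.49 on the TC/AVE arrays and 6.70 and 6.79 on the TC/CP arrays, against 6.60, 6.43 and 6.52 in TC-71 samples 1, 2 and 3. TC/AVE stood clear of all other samples. Its difference was 0.95 ± 0.21 (1.93-fold, adjusted p = 0.483 by limma), and 1.04 from TC-71 sample 2 in the same array set. The other LRP5 probe set, at 5.30 ± 0.40 in TC-71 (SD, n = 3), had a difference of -0.11 in TC/AVE.

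LRP6 read 9.76 and 9.88 on the TC/AEW arrays, 10.20 and 10.25 on the TC/AVE arrays and 10.42 and 10.35 on the TC/CP arrays, against 9.44, 10.11 and 9.97 in TC-71 samples 1, 2 and 3. The antibody-selected lines lay above every TC-71 sample on all 3 LRP6 probe sets, and TC/AEW lay among the TC-71 samples on all 3. On the second probe set the margin in TC/CP was slight, its lower array reading 8.55 against 8.54 in TC-71 sample 2. Differences on the main probe set were 0.39 ± 0.33 in TC/AVE and 0.54 ± 0.33 in TC/CP (adjusted p = 0.959 and 0.999 by limma), and the test of TC/AEW against the antibody-selected lines gave -0.49 ± 0.35 (adjusted p = 1.00). Without TC-71 sample 1, the lowest for LRP6, the differences were 0.19 in TC/AVE and 0.34 in TC/CP. Within array sets the values were -0.29, 0.12 and 0.41 in TC/AEW, in TC/AVE and in TC/CP.

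**Figure D3:**
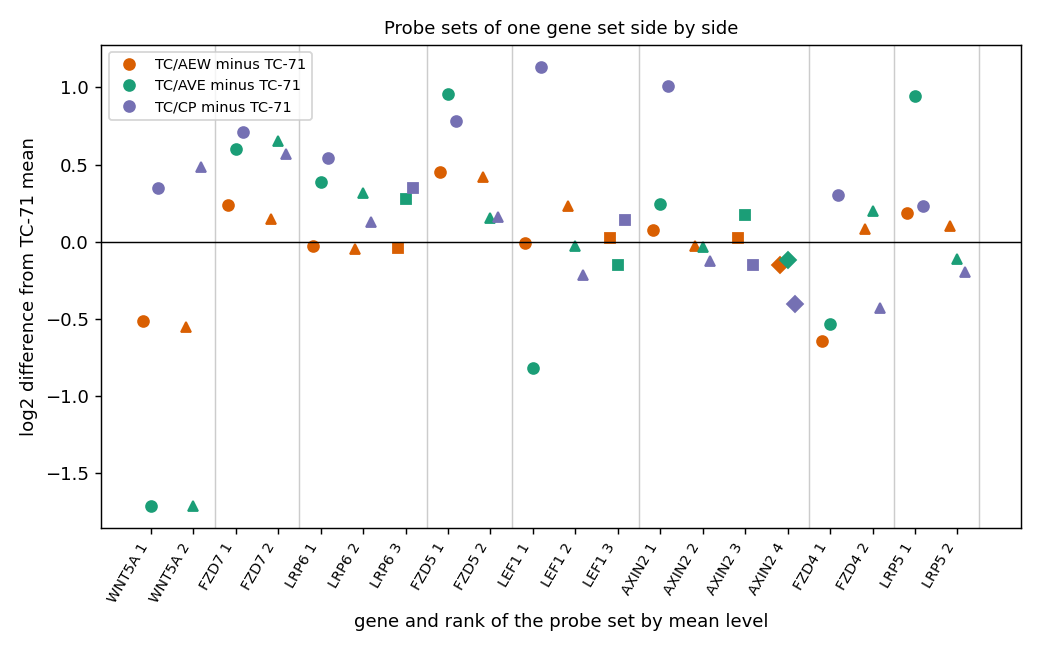
Log2 difference of each line from the mean of the 3 TC-71 samples, for every probe set above the filter of 8 members, with probe sets of a gene numbered by mean level and the lines in colours. The probe sets of WNT5A lie close together in each line, and those of LRP6 do so less in TC/CP, at 0.54, 0.13 and 0.35. The other probe sets of LEF1, AXIN2, FZD4 and LRP5 do not repeat the difference of the first.

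Of the secreted antagonists only DKK2 and SFRP5 passed the filter. DKK2, which binds the LRP co-receptors and can weaken or strengthen signalling depending on the other proteins present, read 10.29 and 10.18 on the TC/AEW arrays, 10.29 and 10.27 on the TC/AVE arrays and 10.86 and 10.71 on the TC/CP arrays, against 10.10, 10.61 and 10.05 in TC-71 samples 1, 2 and 3. TC/CP lay above every TC-71 sample and the other lines lay among them. The TC/CP difference was 0.53 ± 0.30 (1.44-fold, adjusted p = 0.999 by limma), and 0.73 from TC-71 sample 3. SFRP5 stood between 6.12 and 6.59 on every array.

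In the cytoplasm, CTNNB1, which encodes beta-catenin, read 10.36 and 10.34 on the TC/AEW arrays, 10.45 and 10.67 on the TC/AVE arrays and 10.14 and 10.11 on the TC/CP arrays, against 9.80, 10.46 and 9.98 in TC-71 samples 1, 2 and 3. No line had both arrays beyond all TC-71 samples, and the largest difference was 0.47 ± 0.32 in TC/AVE, which was 0.094 within its array set. APC and AXIN1, scaffolds of the destruction complex, differed from TC-71 by at most 0.14 and 0.24 in size in any line. Beta-catenin activity depends on protein stability, which these arrays do not measure.

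Among the remaining nuclear factors, TCF7L2 read 9.27 and 9.24 on the TC/AEW arrays, 8.91 and 9.07 on the TC/AVE arrays and 9.64 and 9.44 on the TC/CP arrays, against 8.50, 9.68 and 9.36 in TC-71 samples 1, 2 and 3. On this probe set the TC-71 samples spanned all the lines, with the largest SD of any member tested, 0.61. On the 7 TCF7L2 probe sets the TC/AVE difference lay between -0.41 and -0.19. TC/AVE lay below every TC-71 sample on those ranked 2, 4, 5 and 6 by mean level and overlapped TC-71 on the rest. TC/AEW lay below on those ranked 4 and 6, and TC/CP on that ranked 5. TCF7L1, which often acts as a repressor, stood at 5.48 in TC/CP against 6.04 ± 0.08 in TC-71 (SD, n = 3), a difference of -0.55 ± 0.21 (adjusted p = 0.981 by limma), at a level where background may weigh.

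DACT1 and DACT3, which bind Dishevelled, are described last. DACT3 read 6.26 and 6.21 on the TC/AEW arrays, 6.20 and 6.22 on the TC/AVE arrays and 6.14 on both TC/CP arrays, against 6.35, 6.19 and 6.33 in TC-71 samples 1, 2 and 3. TC/CP lay just below every TC-71 sample and the other lines among them. Its largest difference was -0.15 ± 0.21, in TC/CP (adjusted p = 0.999 by limma). DACT1 stood at 4.87 in TC/CP against 5.49 ± 0.54 in TC-71.

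Counting members with both arrays of a line beyond all 3 TC-71 samples gave 7 in TC/AEW, 9 in TC/AVE and 13 in TC/CP, which are 21.9%, 28.1% and 40.6% of the 32. The shares over all genes were 29.8% (15.4% above and 14.3% below), 39.4% (19.6% above and 19.8% below) and 38.2% (21.2% above and 17% below). In TC/CP, 10 of the 13 were above TC-71, which is 31.2% of the members against 21.2% of all genes, and they were AXIN2, DKK2, FZD4, FZD5, FZD6, FZD7, LEF1, LRP5, LRP6 and WNT5A. The members' share was thus lower than that of all genes in TC/AEW and TC/AVE and close to it in TC/CP, and members measured in 1 culture are not independent. In TC/AVE, FZD5, FZD7, LRP5 and LRP6 were above and FZD3, FZD4, LEF1, WNT4 and WNT5A below. The 3 single-line comparisons share the same TC-71 samples.

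**Figure D4:**
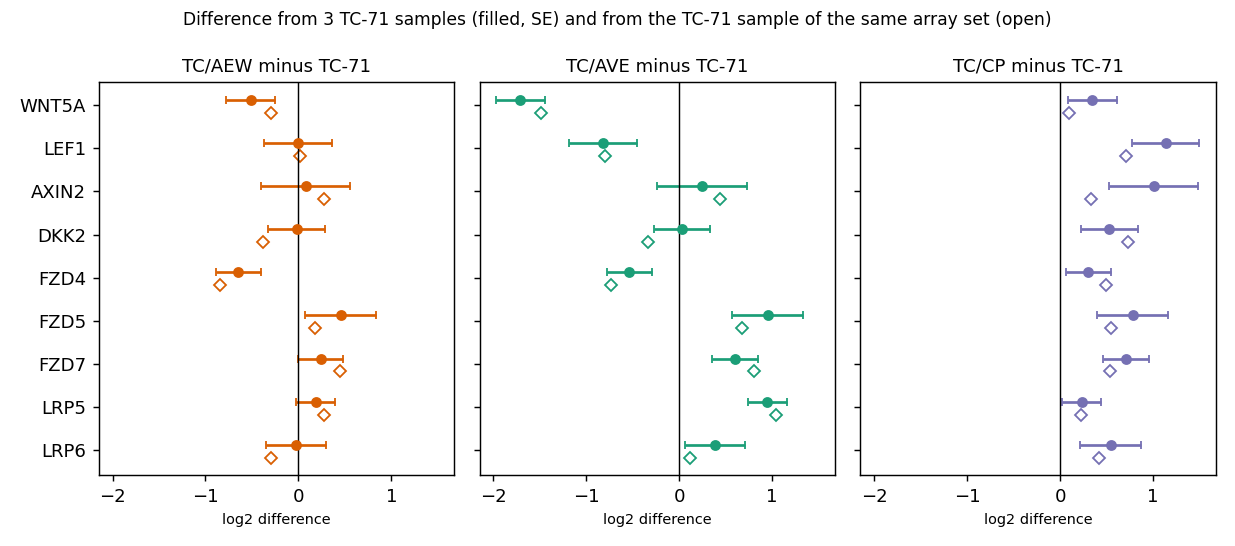
Log2 difference of each resistant line from the mean of 3 TC-71 samples (filled, with the moderated SE) and from the 1 TC-71 sample of the same array set (open), for 9 members. WNT5A and LRP5 in TC/AVE keep about the same difference within the set, and AXIN2 in TC/CP is 1.01 against all samples and 0.33 within the set.

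Other genes of the pathway were taken from a list of 62 genes that are no members, of which 61 had a probe set and 49 passed the filter. In the lines in common, the counts were 25 higher and 24 lower around a median of 0.00. There, where 0.0212% of all genes were called, limma called 1, which was lower. That gene was DACT2, the third DACT protein, which read 6.10 and 5.93 on the TC/AEW arrays, 5.88 and 5.62 on the TC/AVE arrays and 5.95 and 5.81 on the TC/CP arrays, against 7.50, 7.44 and 7.60 in TC-71 samples 1, 2 and 3. It was lower in the lines in common by 1.63 ± 0.13 on the log2 scale (3.09-fold, adjusted p = 0.0319 by limma). Within array sets the differences were -1.42, -1.69 and -1.72 in TC/AEW, in TC/AVE and in TC/CP. Its levels in the lines lay near those of HBB, so background may weigh in the size. DACT2 was not followed under the alternatives. None of the 49 was called in TC/AEW, TC/AVE or TC/CP singly. There 3, 8 and 4 had an unadjusted p under 0.05 by limma, against 3.52%, 7.23% and 4.93% of all genes.

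The next largest differences in the lines in common were those of VANGL1, CER1, RYK, SOSTDC1 and BCL9L, none past the threshold. VANGL1, a planar cell polarity protein, stood at 8.73, 8.90 and 9.65 in TC/AEW, in TC/AVE and in TC/CP against 8.02 ± 0.19 in TC-71 (SD, n = 3), 1.07 ± 0.25 higher (adjusted p = 0.343 by limma). RYK, a receptor for WNT ligands related to tyrosine kinases, stood at 9.09, 9.40 and 9.29 against 8.53 ± 0.54. BCL9L, a beta-catenin co-activator, stood at 7.06, 6.72 and 7.30 against 7.66 ± 0.38. CER1 and SOSTDC1, secreted inhibitors, lay under 6 in every line, with differences of -0.92 ± 0.21 and -0.67 ± 0.38.

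WNT target genes that are no members, a list of 22 of which 18 passed the filter, had none called by limma in any comparison. In the lines in common 3 had an unadjusted p under 0.05, against 8.39% of all genes. There 12 had higher and 6 lower levels (median 0.069), against 6935 and 7237 of all genes (median -0.0060). In TC/CP, where the main probe sets of LEF1 and AXIN2 were highest, the split was 11 to 7 and the median 0.15. Over all genes the TC/CP split was 7035 to 7137 and the median -0.0024. The 6 with the largest differences in the lines in common were FOSL1, JUN, LGR5, MYC, CCND1 and TWIST1. FOSL1, an AP-1 subunit, stood at 6.15, 6.13 and 7.96 in TC/AEW, in TC/AVE and in TC/CP against 5.57 ± 0.14 in TC-71 (SD, n = 3), and its TC/CP difference was 2.39 ± 0.22 (adjusted p = 0.293 by limma). JUN stood at 9.58, 8.37 and 8.26 against 7.77 ± 1.12, with TC-71 samples from 6.56 to 8.76. LGR5, a receptor of R-spondins, stood at 5.76, 5.06 and 5.24 against 4.79 ± 0.32, near background. MYC was 0.42 ± 0.14 higher in the lines in common (adjusted p = 0.498), CCND1 0.31 ± 0.30 and TWIST1 -0.25 ± 0.33. Several of these genes answer to many pathways besides WNT.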

How the data were processed

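The deposited values are log2 expression levels per probe set of HG-U133 Plus 2 arrays, made by the authors with affy and RMA, as named in the submitters' processing notes without a version. RMA normalizes the arrays to one distribution, so a shift shared by most genes would not be seen. Of 54613 probe sets that are not controls, 41091 carried 1 gene symbol and were used, 1801 carried several and 11721 none. Each gene was read by its probe set with the highest mean over 9 arrays, and kept where at least 2 arrays reached 5. This left 14172 genes, all of which entered each test.

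The 2 technical arrays of a line were averaged, giving 6 samples, whose number limits the precision. Differences were tested two-sided with limma 3.58.1 in R 4.3.3 and adjusted by Benjamini-Hochberg. A 4-group fit (2 residual degrees of freedom) served single lines and lines against each other, and a 2-group fit (4 residual degrees of freedom) the lines in common. Errors of differences are moderated standard errors. The test was tried on simulated data first. Values are array by array for members called, for those at least 2-fold apart with both arrays of a line beyond TC-71, and for the brightest of each role. For other lists the genes called and the 6 largest differences are named. Members and lists were chosen with earlier results of these data known.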

Additional observations from a re-analysis of the deposited data

How the results depend on the processing

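No member was called in the lines in common, or between TC/AEW and the antibody-selected lines, under any alternative run. With each of the 9 arrays entered as a sample of its own, technical ones included, limma called 1 member in TC/AEW, 7 in TC/AVE, 3 in TC/CP and 5 in TC/AVE against TC/CP. With the replicate number as a replicate block in that fit the counts were 1, 6, 3 and 6. Shares over all genes were not taken for the alternatives, so these counts and those below are no result about the members. The numbers of the lines mark technical arrays and those of TC-71 biological samples, so they do not pair samples, and correlations of same-numbered deviations lay between -0.020 and 0.136. The count at least 2-fold in the lines in common was 1 without the TC/CP line, and 0 to 1 over all samples and lines left out. In TC/AVE it was 2 with array set as a block and with the replicate block, and 1 to 2 with a replicate left out. In TC/CP it was 0 with array set as a block, 0 with the mean of kept probe sets, 1 with quantile normalization and 0 to 2 with a replicate left out, 0 being without TC-71 sample 1. In TC/AVE against TC/CP it was 4 with array set as a block and 1 with the mean of kept probe sets. With array set as a block, AXIN2 in TC/AVE against TC/CP turned to 0.11 and CTNNB1 to -0.052, and with the mean of kept probe sets FZD4 in TC/CP turned to -0.063. These 3 were more than 1 SE from 0 before. Of 72 differences followed, another 17, all within 1 SE of 0, took the opposite sign under at least 1 alternative, among them FZD7 in TC/AVE against TC/CP (0.28 with array set as a block), CTNNB1 in TC/AEW (-0.11) and DKK2 in TC/AVE (-0.33) with the same block, and LEF1 in the lines in common (-0.41 without the TC/CP line). The cause was not tested. Array set as a block left no residual degrees of freedom in the 4-group fit, so calls could not be had there. Alternatives for FZD4, FZD5 and LRP5, and for named members outside the lines in common, were added after seeing the data.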

Other observations

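FZD8 is read only by probe sets annotated to both FZD8 and MIR4683, and WNT3 only by probe sets annotated to both WNT3 and LOC101929777, so neither counted as a member or was tested. The brightest FZD8/MIR4683 probe set stood at 8.75, 8.02 and 9.51 in TC/AEW, in TC/AVE and in TC/CP against 9.11 ± 0.32 in TC-71 (SD, n = 3). A second one stood at 7.69, 6.54 and 8.58 against 8.04 ± 0.40. The third stood at 6.0, 5.01 and 5.89 against 6.15 ± 0.31. All 3 had their lowest level in TC/AVE, and the highest line was TC/CP on the first and second and TC/AEW on the third. One WNT3/LOC101929777 probe set stood at 4.78, 4.59 and 5.87 in TC/AEW, in TC/AVE and in TC/CP against 4.67 ± 0.39 in TC-71, and the brightest of them at 6.22, 6.24 and 6.32 against 6.29 ± 0.09.

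The probe sets of CTNNB1 did not move together. The second stood at 6.23, 6.26 and 6.82 in TC/AEW, in TC/AVE and in TC/CP against 6.58 ± 0.32 in TC-71 (SD, n = 3), and the third at 6.08, 6.29 and 5.00 against 5.86 ± 0.47.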
